A study of Mus musculus with 12 samples.

Results

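Keratin genes lie in 2 clusters of the mouse genome, and this account gives where H3K27me3 peaks fell over both clusters in fibroblasts with and without Ezh2. The members were all protein-coding genes of the GENCODE M1 annotation (mouse build mm9) whose symbol is Krt followed by a number, with or without a letter, which gave 50 of 22367 protein-coding genes. The chromosome 11 cluster (chr11:99094075-100131185) holds 27 of them, from Krt222 to Krt42, all on the minus strand. The chromosome 15 cluster (chr15:101177875-101862457) holds the other 23, from Krt80 to Krt18, with 3 on the plus strand and 20 on the minus strand. Keratins are the intermediate filament proteins of epithelia, and each filament pairs an acidic type I chain with a basic type II chain. The genes of type I chains are on chromosome 11 and those of type II chains on chromosome 15, except that Krt18, a type I gene, lies at the end of the type II cluster beside its type II partner Krt8. Mesenchymal cells such as fibroblasts normally use vimentin in place of keratins, and H3K27me3, deposited by EZH1 or EZH2 within Polycomb-repressive complex PRC2, is linked to the silencing of genes of other lineages.

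The cells were a c-Myc transformed clone of mouse embryonic fibroblasts (C2 iMEFs), all from 1 clone that carried 1 floxed and 1 deleted Ezh2 allele and a tamoxifen-inducible Cre (Ezh2 flox/Δ;ROSA26-CreERT2). Cells labelled Ezh2 -/- had lost Ezh2 after 4-hydroxytamoxifen, cells labelled Ezh1 or Ezh2 pre-rescue condition (here the Ezh1 rescue and the Ezh2 rescue) expressed retroviral Flag-Ezh1 or Flag-Ezh2 before that deletion, and cells labelled Ezh2 WT/WT (here wild type) had not lost it. Experiment 1 had 2 Ezh2 -/- and 2 wild-type libraries (an Active Motif antibody, SOLiD 75-bp reads). Experiment 2 had 1 Ezh1 rescue, 1 Ezh2 rescue, 2 Ezh2 -/- and 2 wild-type libraries (antibody clone 7b11, Illumina 100-bp reads). No label said that replicates were separate cultures, so the spread between them may be technical. The only input sample in the labels of each experiment came from wild-type cells.

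Each list gave only the start and end of its peaks, so width and position were measured and the height of the mark was not. The paper reports that Ezh2 deletion strongly lowered H3K27me3 in this cell model. Wider coverage in an Ezh2 -/- list therefore does not show more of the mark. Peaks covered 0.915 and 2.13% of the genome in the Ezh2 -/- libraries of experiment 1, against 5.32 and 6.67% in its wild-type libraries. In experiment 2 they covered 9.64% in Ezh1 rescue cells, 3.04% in Ezh2 rescue cells, 0.00222 and 0.0181% in Ezh2 -/- libraries and 0.561 and 0.424% in wild-type libraries. The lists of experiment 2 from wild-type cells were thus far shorter than those of experiment 1, and no list gives the read depth behind a peak. As a check of the cell type, 0 of 14 fibroblast marker genes had a promoter peak in both wild-type libraries of experiment 1. Of epithelial marker genes other than keratins, 6 of 9 had one, against 20.1% of all genes. Since most genes lacked such a peak, the fibroblast count says little by itself. Among the epithelial markers Cdh1 and Trp63 had no peak in either of these libraries, and Epcam had one in replicate 1 only. In both Ezh2 -/- libraries of experiment 1, 2 of the 14 fibroblast markers had a peak, Vim and Prrx1 (14.3%, against 4.47% of all genes). None of the 9 epithelial markers did. A peak list cannot show whether Ezh2 itself was deleted.

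The 5 promoter sequences below are shown as a description only. Each runs from 250 bases before to 50 bases after the transcription start site (TSS), 5′ to 3′ in the direction of the gene. They come from the mm9 genome, with every CpG in capitals. Krt24 had the widest promoter coverage of the chromosome 11 cluster in wild-type cells, Krt39 and Krt18 had the highest CpG ratio among the genes not marked there, and Krt35 and Krt17 had the widest coverage among the genes with a peak in both Ezh2 -/- libraries.
Krt24 (chr11:99146527-99146826, minus strand): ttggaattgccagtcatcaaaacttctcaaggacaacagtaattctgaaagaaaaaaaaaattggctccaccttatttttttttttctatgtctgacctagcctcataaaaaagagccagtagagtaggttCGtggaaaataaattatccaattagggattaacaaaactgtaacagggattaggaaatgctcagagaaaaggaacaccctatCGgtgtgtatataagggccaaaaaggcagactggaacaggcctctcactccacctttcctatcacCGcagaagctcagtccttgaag
Krt39 (chr11:99382603-99382902, minus strand): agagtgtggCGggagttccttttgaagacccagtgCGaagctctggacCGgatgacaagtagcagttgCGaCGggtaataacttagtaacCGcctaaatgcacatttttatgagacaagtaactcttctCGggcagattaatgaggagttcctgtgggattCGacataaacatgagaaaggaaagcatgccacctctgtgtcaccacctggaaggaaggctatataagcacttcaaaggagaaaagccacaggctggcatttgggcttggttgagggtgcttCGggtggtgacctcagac
Krt18 (chr15:101858397-101858696, plus strand): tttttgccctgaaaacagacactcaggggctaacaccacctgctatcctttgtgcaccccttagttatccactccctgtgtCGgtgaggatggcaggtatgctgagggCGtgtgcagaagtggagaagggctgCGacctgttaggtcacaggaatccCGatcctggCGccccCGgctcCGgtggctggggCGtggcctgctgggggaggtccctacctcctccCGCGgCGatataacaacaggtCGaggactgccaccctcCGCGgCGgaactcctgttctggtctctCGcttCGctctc
Krt35 (chr11:99957506-99957805, minus strand): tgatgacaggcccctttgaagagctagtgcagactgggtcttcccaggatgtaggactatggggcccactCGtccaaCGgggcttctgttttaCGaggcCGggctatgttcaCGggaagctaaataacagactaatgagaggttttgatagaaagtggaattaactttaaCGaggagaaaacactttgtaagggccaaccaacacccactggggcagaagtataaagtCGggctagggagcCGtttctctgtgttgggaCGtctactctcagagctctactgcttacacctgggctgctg
Krt17 (chr11:100122294-100122593, minus strand): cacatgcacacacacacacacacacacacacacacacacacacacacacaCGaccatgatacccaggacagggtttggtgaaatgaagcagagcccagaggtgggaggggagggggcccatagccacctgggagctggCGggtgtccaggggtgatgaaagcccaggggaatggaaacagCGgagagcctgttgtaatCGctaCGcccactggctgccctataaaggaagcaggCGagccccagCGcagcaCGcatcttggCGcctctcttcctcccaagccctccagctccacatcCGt
The 5 sequences hold 3 CpGs in Krt24, 9 in Krt39, 17 in Krt18, 9 in Krt35 and 10 in Krt17. The median over the 50 keratins was 4.5 CpGs in these 300 bases, against 11 over all protein-coding genes. The letters TATAAA, searched on both strands (so also TTTATA), occurred in 25 of 50 keratin promoters (50%) and in 3006 of 22367 promoters of the same length (13.4%). Among the 5 shown they occurred in Krt35 and Krt17.

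In wild-type cells of experiment 1, an H3K27me3 peak overlapped most keratin promoters by at least 1 bp. A promoter was taken as the TSS with 2500 bp upstream and 2500 bp downstream. A peak overlapped 18 and 26 of the 50 promoters in the 2 Ezh2 -/- libraries (6.99 and 8.06% of all genes), against 40 and 43 in the 2 wild-type libraries (22.5 and 22.6% of all genes). At 38 promoters both wild-type libraries had one (76.0%, against 20.1% of all protein-coding genes), and these are called marked below. Peaks covered at least 50% of the promoter at 1 and 15 of the 50 keratins in Ezh2 -/- libraries. In wild-type libraries they did so at 14 and 24, with overlap between the groups. The mean share of a keratin promoter under peaks was 7.68 and 28.2% in the Ezh2 -/- libraries, against 34.1 and 47.4% in wild-type libraries. Both Ezh2 -/- values were below both wild-type values, a difference of -22.8 percentage points (exact permutation test over libraries, two-sided, p = 0.33, the smallest that 2 against 2 libraries allow). Of the 38 marked promoters, 17 (44.7%) had no peak in either Ezh2 -/- library, against 92.4% of all genes marked in wild type. A peak in both Ezh2 -/- libraries was found at 18 of the 50 keratin promoters (36.0%, against 4.47% of all genes). At marked promoters alone that held for 14 of 38, against 3.35% of all marked genes. Of the 18 keratins, 4 were not marked in wild type. Among all genes with a peak in both Ezh2 -/- libraries, 849 of 1000 were not.

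**Figure D1:**
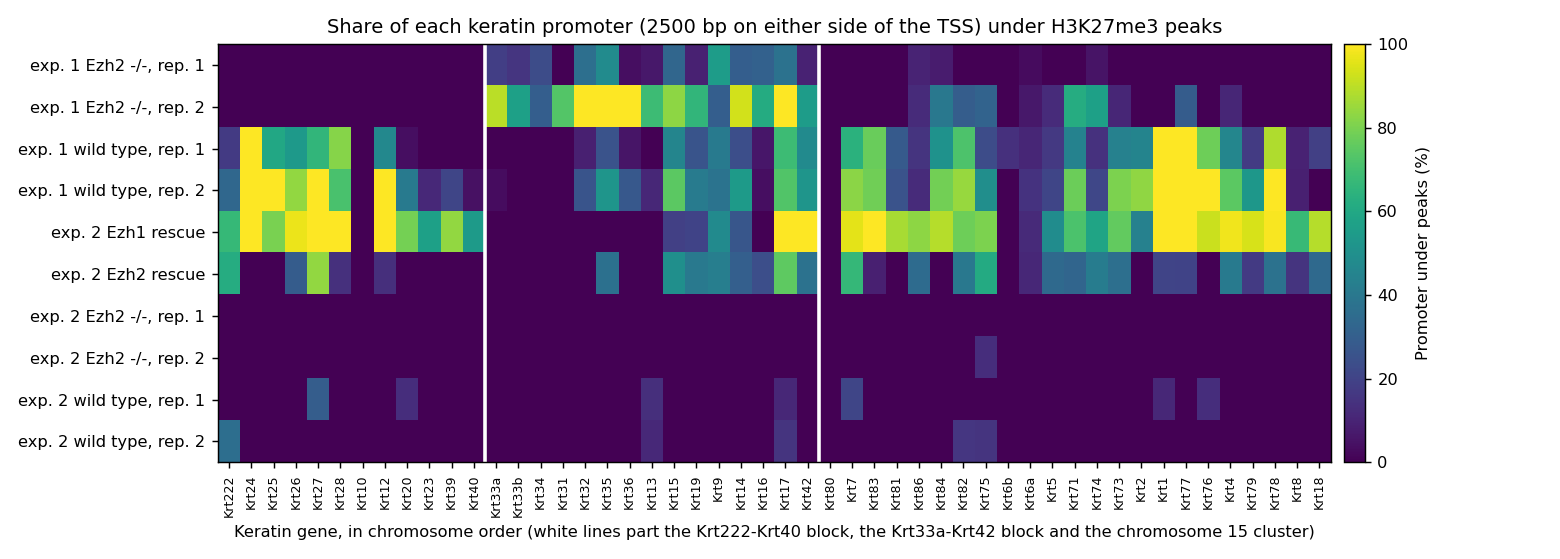
Share of each of the 50 keratin promoters under H3K27me3 peaks (color, 0 to 100%) in the 10 libraries (rows), with genes in chromosome order. The Krt222 to Krt40 promoters have no color in either Ezh2 -/- library of experiment 1, whereas 14 and 15 of the 15 promoters from Krt33a to Krt42 have a peak there.

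Of the 18 keratin promoters with a peak in both Ezh2 -/- libraries, 14 lay in 1 stretch of chromosome 11. On chromosome 11 the longest distance between neighbouring keratin genes, 468 kb that hold 22 genes of keratin-associated proteins among others, parts 12 genes from Krt222 to Krt40 (chr11:99094075-99404472) from 15 genes from Krt33a to Krt42 (chr11:99872509-100131185). This division was chosen after the values had been seen. In the Krt222 to Krt40 block 0 and 0 of 12 promoters had a peak in Ezh2 -/- libraries, against 8 and 11 in wild-type libraries. In the Krt33a to Krt42 block 14 and 15 of 15 promoters had one in Ezh2 -/- libraries, against 10 and 12 in wild-type libraries. In the type II cluster the counts were 4 and 11 of 23 in Ezh2 -/- libraries, against 22 and 20 in wild-type libraries. The heat map of promoter coverage shows the same division: color leaves the left part of the Ezh2 -/- lines, fills the middle part and is patchy in the right part.

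Over whole blocks the direction of the difference was opposite. Peaks covered 0.284 and 0.131% of the Krt222 to Krt40 block in Ezh2 -/- libraries, against 42.9 and 57.4% in wild-type libraries. The means were 0.208 ± 0.108% and 50.1 ± 10.3% (SD, n = 2 each), a difference of -49.9 percentage points (exact permutation test, two-sided, p = 0.33). The block was nearly bare of peaks without Ezh2. The Krt33a to Krt42 block was covered to 25.4 and 65.1% in Ezh2 -/- libraries, against 13.1 and 23.8% in wild-type libraries. Both Ezh2 -/- libraries lay above both wild-type libraries, replicate 1 by a small margin, and the groups overlapped with peaks of at least 1000 bp only, with 50 kb added on each side and over keratin gene bodies only (differences of 21.8, 18.5 and 23.8 percentage points, exact permutation test, two-sided, p = 0.67 each). The means were 45.2 ± 28.1% and 18.4 ± 7.56% (SD, n = 2 each), a difference of 26.8 percentage points (exact permutation test, two-sided, p = 0.33). That size rests on replicate 2 of the Ezh2 -/- cells: without it the difference was 6.93, and without replicate 1 it was 46.6 percentage points. Within each library, coverage of the Krt33a to Krt42 block minus that of the Krt222 to Krt40 block was 25.1 and 64.9 percentage points in Ezh2 -/- libraries, against -29.8 and -33.6 in wild-type libraries, a difference of 76.7 (exact permutation test, two-sided, p = 0.33).

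**Figure D2:**
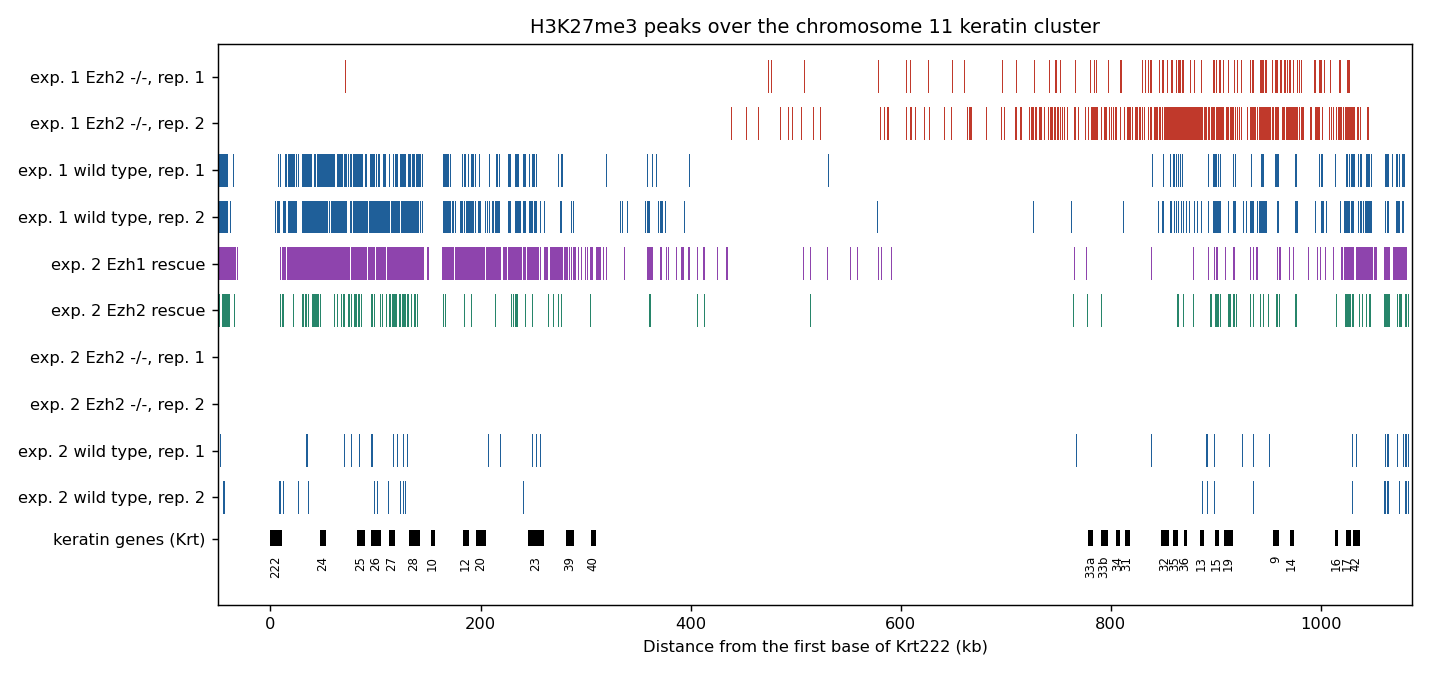
Peaks of each library (bars) along the chromosome 11 keratin cluster, with distance in kb from the first base of Krt222 and keratin genes in black. Peaks of the 2 Ezh2 -/- libraries of experiment 1 crowd to the right of 700 kb, and wild-type and rescue peaks crowd to the left of 300 kb and at the right end.

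The map of chromosome 11 shows where coverage without Ezh2 began and ended. In bins of 50 kb counted from the first base of Krt222, the bin at 300 kb was covered to 0 and 0.340% in Ezh2 -/- libraries. Coverage was 10.7 and 38.3% at 700 kb, ahead of Krt33a, and 29.4 and 91.1% at 850 kb, over Krt32, Krt35, Krt36 and Krt13. It was 3.12 and 3.24% at 1050 kb, just past Krt42, and 0 and 0% at 1100 kb. The wild-type libraries had 0 and 1.33% in the bin at 700 kb, 17.9 and 31.0% at 850 kb, and 43.8 and 40.9% at 1100 kb. Wild-type coverage thus went on beyond Krt42 where Ezh2 -/- coverage had stopped. In the 1037 kb beyond Krt42, Ezh2 -/- libraries had 0.270 and 0.520% covered, against 11.1 and 9.32% in wild-type libraries. In the 468 kb of keratin-associated protein genes ahead of Krt33a they had 3.56 and 11.2%, against 1.33 and 3.70% in wild-type libraries, with overlap between the groups. In the 1037 kb ahead of Krt222, Ezh2 -/- libraries had 0.328 and 0.376%, against 30.7 and 29.4% in wild-type libraries. Wide wild-type coverage that was nearly missing without Ezh2 was thus not particular to the keratin genes.

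The Krt33a to Krt42 block stood out within the Ezh2 -/- lists themselves. Its coverage was 27.7 and 30.5 times that of the genome in the 2 Ezh2 -/- libraries, against 2.46 and 3.57 times in the wild-type libraries. Replicate 2 of the Ezh2 -/- cells had the longer list genome-wide, and relative to the genome the 2 replicates were close. Of 10610 windows of 250 kb that tile the genome, 24 (0.226%) were covered at least as far as this block in both Ezh2 -/- libraries. These 24 windows lay on 5 chromosomes, with 10 of them on chromosome 5 and 4 on chromosome 11. None overlapped the block, so no grid window over it reached its coverage in both libraries. The comparison is uneven: the block was set after its values were seen and ends at its own genes, whereas the windows lie on a fixed grid. The widest peak of any Ezh2 -/- library in the clusters, 35957 bp in replicate 2 (chr11:99944554-99980510), ran over the promoters of Krt32, Krt35, Krt36 and Krt13. The next in that library were 10660 bp over Krt14 (chr11:100060364-100071023) and 9519 bp over Krt17 and Krt42 (chr11:100116607-100126125). In replicate 1 the widest were shorter, with 3097 bp between genes (chr11:100092034-100095130), 2629 bp at Krt35 (chr11:99958102-99960730) and 2243 bp at Krt17 (chr11:100119315-100121557).

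Ezh2 -/- and wild-type peaks of this block shared a part of their bases. Both Ezh2 -/- libraries covered 53.6 kb of it in common (20.7%) and both wild-type libraries 25.2 kb (9.73%). All 4 libraries shared 8.37 kb, which was 15.6% of the Ezh2 -/- bases and 33.3% of the wild-type bases. Wild-type peaks thus took a larger part of the Ezh2 -/- bases than of the whole block, and the same held the other way round. Genome-wide the shared bases were 4.57% of the Ezh2 -/- and 0.505% of the wild-type bases. Both wild-type libraries covered 4.36% of the genome and both Ezh2 -/- libraries 0.482%, so the genome-wide shares were near these coverages. The higher shares in the block stand beside its higher coverage. In the Krt222 to Krt40 block both Ezh2 -/- libraries had 0 kb in common.

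The hair and nail keratins at the low end of the block, structural proteins of the hair cortex and cuticle, had the clearest excess of peak coverage without Ezh2. An excess of coverage is not one of H3K27me3 level, which the lists do not give. Krt33a had 18.7 and 89.6% in Ezh2 -/- libraries, against 0 and 3.34% in wild-type libraries. Krt33b had 15.4 and 57.0% in Ezh2 -/- libraries, against 0 and 0% in wild-type libraries. Krt34 had 23.1 and 29.9% in Ezh2 -/- libraries, against 0 and 0% in wild-type libraries. All 3 were bare or nearly bare of peaks in wild-type cells and had a peak in both Ezh2 -/- libraries, over a small part of the promoter in replicate 1. Krt31, an acidic keratin of the hair cortex, had 0 and 73.3% in Ezh2 -/- libraries, against 0 and 0% in wild-type libraries, so that only replicate 2 had a peak. Krt32, of the hair cuticle, had 36.7 and 100% in Ezh2 -/- libraries, against 8.62 and 26.0% in wild-type libraries, and the groups did not overlap. Krt35, expressed early in the hair matrix and cuticle, had 48.3 and 100% in Ezh2 -/- libraries, against 25.7 and 52.0% in wild-type libraries. Krt36, found in nail, tongue papillae and hair, had 3.68 and 100% in Ezh2 -/- libraries, against 5.50 and 27.7% in wild-type libraries. Both overlapped between the groups through replicate 1 of the Ezh2 -/- cells. Near-identical copies such as Krt33a and Krt33b share sequence, and the authors kept uniquely mapped reads. The part of this in the peaks was not tested.

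The other keratins of the same block had a peak in both Ezh2 -/- libraries, and all of them except Krt13 were marked in wild type. Krt14, the type I chain of basal epidermis, had 30.0 and 93.2% in Ezh2 -/- libraries, against 23.9 and 54.3% in wild-type libraries. Krt15, of basal cells and the hair bulge, had 32.9 and 83.0% in Ezh2 -/- libraries, against 45.6 and 74.7% in wild-type libraries. Krt13, of internal stratified mucosa, had 6.52 and 68.4% in Ezh2 -/- libraries, against 0 and 11.3% in wild-type libraries. In each of these 3 genes replicate 2 of the Ezh2 -/- cells lay above both wild-type libraries and replicate 1 did not. Krt9, of palm and sole epidermis, had 55.2 and 29.8% in Ezh2 -/- libraries, against 40.9 and 38.1% in wild-type libraries, and here replicate 1 was the higher of the Ezh2 -/- pair. Krt19, a keratin of simple epithelia, had 9.10 and 65.6% in Ezh2 -/- libraries, against 25.9 and 41.5% in wild-type libraries. Krt16, induced in wounded and hyperproliferative epidermis, had 31.2 and 61.5% in Ezh2 -/- libraries, against 6.14 and 3.74% in wild-type libraries, with both Ezh2 -/- libraries above both wild-type libraries. Krt17, induced with it, had 37.8 and 100% in Ezh2 -/- libraries, against 68.6 and 72.9% in wild-type libraries. Krt42 had 9.76 and 55.1% in Ezh2 -/- libraries, against 47.8 and 52.0% in wild-type libraries. For Krt17 and Krt42 the Ezh2 -/- pair enclosed the wild-type pair.

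Non-overlap was counted over all members in both directions. Both Ezh2 -/- libraries were above both wild-type libraries at 5 of 50 keratin promoters (10.0%, against 3.76% of all genes), namely Krt33a, Krt33b, Krt34, Krt32 and Krt16, all in the Krt33a to Krt42 block. Both were below at 24 of 50 (48.0%, against 19.6% of all genes), of which 8 lay in the Krt222 to Krt40 block, 16 in the type II cluster and 0 in the Krt33a to Krt42 block. Only promoters with a peak in both Ezh2 -/- libraries can be above: 18 keratins and 1000 of all genes, of which 842 were. Only promoters marked in wild type can be below: 38 keratins and 4506 of all genes, of which 4389 were. Among such promoters the keratin share was the smaller in both directions.

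The Krt222 to Krt40 block held the promoter of the type I cluster with the highest coverage in wild-type cells of experiment 1, Krt24, and none of its promoters had a peak in either Ezh2 -/- library. Krt24 was covered to 100 and 100% in wild-type libraries, within peaks of 17175 bp (chr11:99138098-99155272) and 25371 bp (chr11:99123827-99149197). The 4 inner root sheath keratins of the block form the sheath that molds the growing hair, and all were marked. Krt25 had 0 and 0% in Ezh2 -/- libraries, against 59.9 and 100% in wild-type libraries. Krt26 had 0 and 0% in Ezh2 -/- libraries, against 54.2 and 83.6% in wild-type libraries. Krt27 had 0 and 0% in Ezh2 -/- libraries, against 65.8 and 100% in wild-type libraries. All 3 were fully free of peaks without Ezh2. Krt28, the fourth, had 0 and 0% in Ezh2 -/- libraries, against 82.0 and 71.1% in wild-type libraries. Krt12, the keratin of corneal epithelium, had 0 and 0% in Ezh2 -/- libraries, against 46.7 and 100% in wild-type libraries. Krt222 had 0 and 0% in Ezh2 -/- libraries, against 17.2 and 33.4% in wild-type libraries, and Krt20, of intestinal and urothelial epithelium, had 0 and 0% in Ezh2 -/- libraries, against 3.80 and 41.3% in wild-type libraries. Each of these wild-type pairs lay above the Ezh2 -/- pair.

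Krt10, the type I chain of suprabasal epidermis, was the exception between covered neighbours: it had no peak in any of the 10 lists, whereas Krt28 and Krt12 on either side of it were covered in both wild-type libraries. In experiment 1 the remaining genes of this block, Krt23, Krt39 and Krt40, had a peak only in replicate 2 of the wild-type cells, with 0 and 11.7%, 0 and 20.8% and 0 and 4.36% in the 2 wild-type libraries of each.

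The type II cluster was covered less in both Ezh2 -/- libraries than in both wild-type libraries. Peaks covered 0.598 and 11.7% of it in Ezh2 -/- libraries, against 35.1 and 45.8% in wild-type libraries. The means were 6.15 ± 7.85% and 40.4 ± 7.59% (SD, n = 2 each), a difference of -34.3 percentage points (exact permutation test, two-sided, p = 0.33). No Ezh2 -/- library reached the lower wild-type library, but the 2 Ezh2 -/- libraries differed between themselves: relative to the genome the cluster stood at 0.654 times in replicate 1 and 5.48 times in replicate 2, against 6.60 and 6.86 times in wild-type libraries. Both Ezh2 -/- libraries covered only 1.84 kb of it in common, against 199 kb in both wild-type libraries. In the 685 kb ahead of Krt80, Ezh2 -/- libraries had 0.168 and 0.481%, against 21.5 and 29.0% in wild-type libraries. In the 685 kb beyond Krt18 they had 0.0443 and 0.108%, against 3.21 and 3.19% in wild-type libraries. From Krt222 to Krt42, both blocks and the stretch between them, the type I cluster had 8.02 and 21.3% in Ezh2 -/- libraries, against 16.7 and 24.8% in wild-type libraries, which overlapped (14.7 ± 9.39% and 20.7 ± 5.73%, SD, n = 2 each, difference -6.08, exact permutation test, two-sided, p = 0.67). Without replicate 1 of the Ezh2 -/- cells the sign of that difference turned, to 0.560 percentage points. Over 12 comparisons of this kind the Benjamini-Hochberg adjusted p was 0.36, and 0.67 for the type I cluster in experiment 1.

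**Figure D3:**
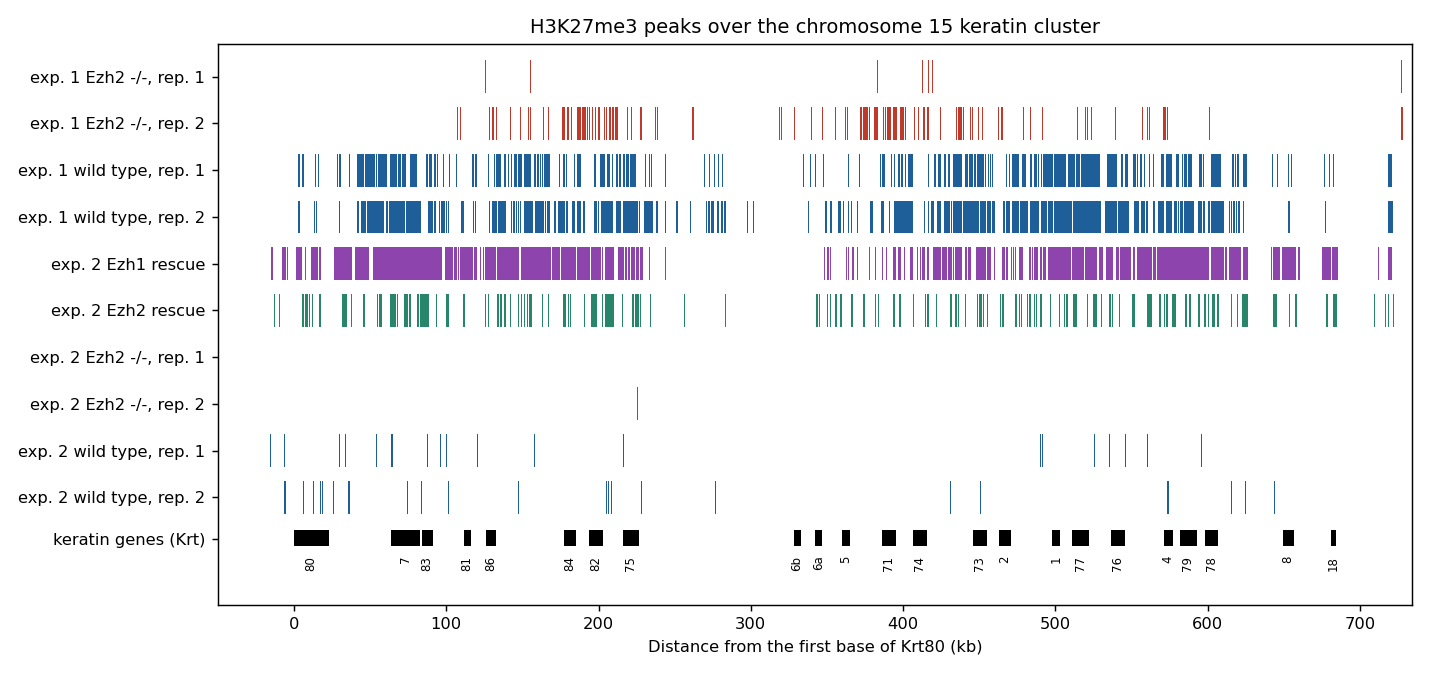
Peaks of each library (bars) along the chromosome 15 keratin cluster, with distance in kb from the first base of Krt80 and keratin genes in black. Replicate 1 of the Ezh2 -/- cells in experiment 1 has single short peaks and replicate 2 has 2 groups of them, near Krt84 and Krt71, while wild-type and rescue peaks run along most of the cluster outside a stretch between Krt75 and Krt6b.

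The map of chromosome 15 places the remaining Ezh2 -/- peaks. The widest of the cluster were 3097 bp over Krt71 (chr15:101571043-101574139), 2958 bp (chr15:101558634-101561591) and 2676 bp (chr15:101567562-101570237), all in replicate 2. In replicate 1 the widest had 628 bp (chr15:101560743-101561370). In wild-type cells the widest were 12022 bp (chr15:101695058-101707079) in replicate 1 and 18405 bp (chr15:101689217-101707621) in replicate 2, both over Krt77.

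In wild-type cells of experiment 1 the most covered promoters of the cluster were those of the epidermal keratins Krt1, Krt77 and Krt78. Krt1, the type II chain of suprabasal epidermis, had 0 and 0% in Ezh2 -/- libraries, against 100 and 100% in wild-type libraries. Krt77 had 0 and 29.2% in Ezh2 -/- libraries, against 100 and 100% in wild-type libraries. Krt78 had 0 and 0% in Ezh2 -/- libraries, against 87.9 and 100% in wild-type libraries. Wild-type coverage was complete or nearly so in all 3, and only Krt77 had a peak without Ezh2. Krt76, of the hard palate, had 0 and 0% in Ezh2 -/- libraries, against 77.8 and 100% in wild-type libraries. Krt2, of the upper epidermis, had 0 and 0% in Ezh2 -/- libraries, against 45.1 and 83.3% in wild-type libraries. Krt4, the partner of Krt13 in mucosa, had 0 and 10.6% in Ezh2 -/- libraries, against 46.0 and 74.9% in wild-type libraries. Of these 3, Krt4 alone had an Ezh2 -/- peak. Krt79 had 0 and 0% in Ezh2 -/- libraries, against 17.6 and 52.8% in wild-type libraries. Krt5, the partner of Krt14 in basal epidermis, had 0 and 12.3% in Ezh2 -/- libraries, against 16.7 and 20.9% in wild-type libraries. Krt80, a keratin of differentiating epithelia, had no peak in any of the 10 lists.

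The type II keratins of the inner root sheath and hair were marked too, and 3 of 3 and 3 of 5 of them had a peak in at least 1 Ezh2 -/- library, against 10.6% of all genes. Krt71 had 0 and 62.0% in Ezh2 -/- libraries, against 44.4 and 77.5% in wild-type libraries. Krt74 had 5.08 and 56.7% in Ezh2 -/- libraries, against 14.2 and 21.4% in wild-type libraries. Krt73 had 0 and 10.9% in Ezh2 -/- libraries, against 43.8 and 80.3% in wild-type libraries. All 3 are inner root sheath keratins, and replicate 2 of the Ezh2 -/- cells exceeded both wild-type libraries only at Krt74. Krt84 had 7.74 and 40.0% in Ezh2 -/- libraries, against 51.0 and 78.6% in wild-type libraries. Krt82 had 0 and 29.6% in Ezh2 -/- libraries, against 72.3 and 84.5% in wild-type libraries. Krt86 had 9.88 and 12.4% in Ezh2 -/- libraries, against 15.1 and 12.4% in wild-type libraries. These hair keratins had an Ezh2 -/- peak in 1 or both libraries. Krt83 had 0 and 0% in Ezh2 -/- libraries, against 77.1 and 78.4% in wild-type libraries, and Krt81 had 0 and 0% in Ezh2 -/- libraries, against 28.2 and 25.8% in wild-type libraries, with no Ezh2 -/- peak in either gene. Krt81, Krt83 and Krt86 are close copies of each other, and the part of shared reads was not tested.

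The wound and simple-epithelium keratins of the cluster differed among themselves. Krt75, of the companion layer of hair, had 0 and 31.7% in Ezh2 -/- libraries, against 23.4 and 49.4% in wild-type libraries. Krt6a, induced in wounded epidermis, had 3 and 6.54% in Ezh2 -/- libraries, against 10.8 and 14.8% in wild-type libraries. Its near-identical neighbour Krt6b had a peak in 1 wild-type library only (13.9 and 0%) and none without Ezh2. Krt7, of glandular and urothelial epithelium, had 0 and 0% in Ezh2 -/- libraries, against 63.9 and 82.5% in wild-type libraries. Krt8, the first type II keratin of the embryo, had 0 and 0% in Ezh2 -/- libraries, against 9.66 and 8.88% in wild-type libraries. Its partner Krt18 had 0 and 0% in Ezh2 -/- libraries, against 18.9 and 0% in wild-type libraries. The Krt8 and Krt18 pair was thus covered to a small extent in wild-type cells, and Krt7 was covered to a large one.

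Grouped by use, marked promoters were found in every group. They numbered 4 of 6 in simple epithelium, 12 of 15 in epidermis and stratified mucosa, 4 of 5 in wound and appendage, 7 of 7 in the inner root sheath, 8 of 14 in hair and nail, and 3 of 3 others (Krt24, Krt42 and Krt222), against 20.1% of all genes. The marked ones without a peak in either Ezh2 -/- library numbered 3 in simple epithelium, 6 in epidermis and stratified mucosa, 0 in wound and appendage, 4 in the inner root sheath, 2 in hair and nail and 2 among the others. Counted by block, 8 of 8 marked genes of the Krt222 to Krt40 block had no Ezh2 -/- peak, against 9 of 20 in the type II cluster and 0 of 10 in the Krt33a to Krt42 block. Of all genes marked in wild type, 92.4% had none. Use and block went together in part. The Krt33a to Krt42 block held 7 of the 14 hair and nail keratins, and the Krt222 to Krt40 block 4 of the 7 inner root sheath keratins. The 2 were not separated here.

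In experiment 2 the keratins of Ezh2 -/- cells had almost no peaks. The 2 Ezh2 -/- lists held 29 and 382 peaks genome-wide. Across the type I cluster they covered 0 and 0%, against 2.28 and 1.49% in wild-type libraries (difference -1.89 percentage points, exact permutation test, two-sided, p = 0.33). Across the type II cluster they covered 0 and 0.0949%, against 1.96 and 2.27% in wild-type libraries (difference -2.07, exact permutation test, two-sided, p = 0.33). The Krt33a to Krt42 block, covered in Ezh2 -/- cells of experiment 1, had 0 and 0% in those of experiment 2, against 3.36 and 2.20% in wild-type libraries. The experiments differed in antibody, sequencing platform and aligner, and which of these the difference goes with cannot be told apart. The single keratin peak of these Ezh2 -/- lists had 650 bp (chr15:101403101-101403750) and lay in the Krt75 promoter, where the libraries had 0 and 13.0% in Ezh2 -/- cells and 0 and 15% in wild-type cells.

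At promoters, 0 and 1 of 50 keratins had a peak in Ezh2 -/- libraries of experiment 2, against 8 and 5 in wild-type libraries (7.05 and 6.07% of all genes in wild type, difference -6.00, exact permutation test, two-sided, p = 0.33). The mean share of a promoter under peaks was 0 and 0.260% in Ezh2 -/- libraries, against 2.25 and 1.87% in wild-type libraries. Krt13 and Krt17 were the 2 keratins with a peak in both wild-type libraries (4.00%, against 3.11% of all genes), and both lacked a peak in either Ezh2 -/- library, as did 96.4% of all genes marked there. Krt13 had 0 and 0% in Ezh2 -/- libraries, against 13.6 and 11.6% in wild-type libraries. Krt17 had 0 and 0% in Ezh2 -/- libraries, against 11 and 15% in wild-type libraries. The keratin promoters with a peak in 1 of the 2 wild-type libraries were Krt27, Krt20, Krt42, Krt7, Krt1 and Krt76 in replicate 1 and Krt222, Krt82 and Krt75 in replicate 2, with shares between 0.320% at Krt42 and 36.0% at Krt222.

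**Figure D4:**
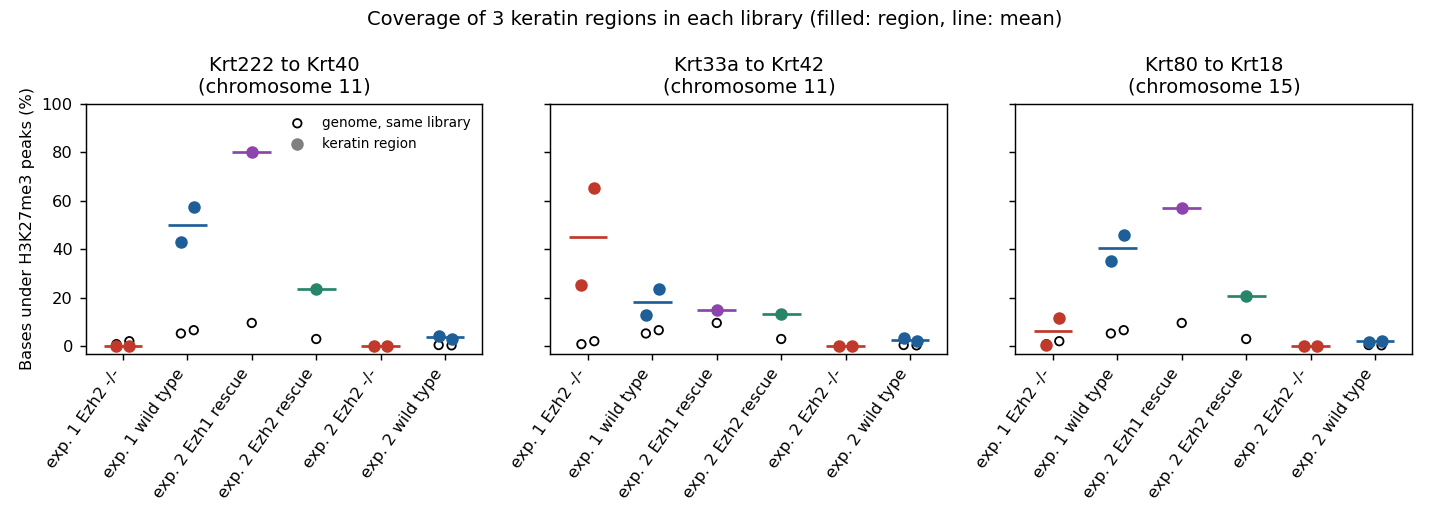
Bases under peaks (%) in the Krt222 to Krt40 block, the Krt33a to Krt42 block and the chromosome 15 cluster in each library (filled points, with lines at group means), beside the share of the genome in the same library (open points). The Ezh2 -/- points of experiment 1 lie above the wild-type points in the middle panel only, and the Ezh1 rescue is highest in the outer panels.

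Both rescues had peaks over the keratins, with 1 library each and so no replicate check. The paper reports less H3K27me3 in Ezh1 rescue than in Ezh2 rescue cells, globally and along the genome. Wider peaks in the Ezh1 rescue list therefore do not show more of the mark. In Ezh1 rescue cells 38 of 50 keratin promoters had a peak (76.0%, against 28.2% of all genes), in Ezh2 rescue cells 30 (60.0%, against 18.8% of all genes), in Ezh2 -/- libraries of the same experiment 0 and 1, and in wild-type libraries 8 and 5. Of the 38 promoters marked in wild type of experiment 1, the Ezh1 rescue had a peak at 34 (89.5%, against 90.8% of all genes marked there) and the Ezh2 rescue at 29 (76.3%, against 71.1%), shares near the background. The plot of coverage by block shows the rescues beside the other groups. The Krt222 to Krt40 block was covered to 80.1% in Ezh1 rescue cells and 23.8% in Ezh2 rescue cells, against 0 and 0% in Ezh2 -/- libraries and 4.37 and 3.16% in wild-type libraries. The type II cluster was covered to 57.1% in Ezh1 rescue cells and 20.8% in Ezh2 rescue cells, against 0 and 0.0949% in Ezh2 -/- libraries and 1.96 and 2.27% in wild-type libraries. The Krt33a to Krt42 block, by contrast, was covered to 14.9% in Ezh1 rescue cells and 13.2% in Ezh2 rescue cells, against 0 and 0% in Ezh2 -/- libraries and 3.36 and 2.20% in wild-type libraries, and the 2 rescues were close there.

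Set against the genome, both rescues covered the Krt222 to Krt40 block further than the Krt33a to Krt42 block. The Ezh1 rescue covered the Krt222 to Krt40 block 8.30 times as far as the genome and the Krt33a to Krt42 block 1.55 times, and the Ezh2 rescue 7.83 and 4.36 times. The wild-type means of the same experiment were 7.61 and 5.60 times, and those of experiment 1, with another antibody and platform, 8.33 and 3.02 times. Of the bases covered by both wild-type libraries of experiment 1, the Ezh1 rescue covered 96.9% in the Krt222 to Krt40 block, 80.9% in the type II cluster and 39.6% in the Krt33a to Krt42 block, against 76.8% genome-wide. The Ezh2 rescue covered 38.8, 26.8 and 38.9% of them in the same 3 regions, against 36.3% genome-wide. Of the Ezh2 rescue's own bases, the Ezh1 rescue covered 95.6, 85.9 and 50.9%, against 88.2% genome-wide.

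Promoter coverage was wider with the Ezh1 than with the Ezh2 rescue at 35 of 50 keratins (70.0%, against 26.9% of all genes), with 11 of 12 in the Krt222 to Krt40 block, 21 of 23 in the type II cluster and 3 of 15 in the Krt33a to Krt42 block. Genes with no peak in either rescue cannot be wider, and these were 10 keratins and 15745 of 22367 genes. Of all genes 6012 were wider with the Ezh1 rescue, so among genes with a rescue peak the keratins showed no excess. The Ezh1 rescue list was also the longer one genome-wide (9.64 against 3.04% of the genome). The median share over the 50 promoters was 73.9% in Ezh1 rescue cells (lowest 0, highest 100%) and 16.0% in Ezh2 rescue cells (lowest 0, highest 83.6%). Krt24 had 100% in Ezh1 rescue cells and 0% in Ezh2 rescue cells. Krt25 had 79.7% in Ezh1 rescue cells and 0% in Ezh2 rescue cells, and Krt39 had 84.0% in Ezh1 rescue cells and 0% in Ezh2 rescue cells. The Krt24 region held the widest peak of the Ezh1 rescue in the clusters, 47700 bp (chr11:99122601-99170300), whereas the widest of the Ezh2 rescue in the type I cluster had 3550 bp (chr11:99219751-99223300). Krt8 had 67.5% in Ezh1 rescue cells and 15% in Ezh2 rescue cells, and its partner Krt18 had 89.0% in Ezh1 rescue cells and 34.0% in Ezh2 rescue cells. Neither of these simple-epithelium keratins had a peak in Ezh2 -/- or wild-type libraries of that experiment. Krt7 had 96.0% in Ezh1 rescue cells and 66.5% in Ezh2 rescue cells. The widest peak within the type II cluster had 18000 bp (chr15:101255001-101273000, over the Krt83 promoter) in Ezh1 rescue cells and 4100 bp (chr15:101240651-101244750, over the Krt7 promoter) in Ezh2 rescue cells.

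Most hair keratins of the Krt33a to Krt42 block, covered in Ezh2 -/- cells of experiment 1, had no peak in the rescues. Krt33a, Krt33b, Krt34, Krt31, Krt32 and Krt36 had no peak in either rescue, and Krt35 had 0% in Ezh1 rescue cells and 37.0% in Ezh2 rescue cells. Further along the same block, Krt17 had 100% in Ezh1 rescue cells and 75.0% in Ezh2 rescue cells, and Krt42 had 100% in Ezh1 rescue cells and 37.7% in Ezh2 rescue cells. Krt14, the basal keratin, had 26.8% in Ezh1 rescue cells and 30.2% in Ezh2 rescue cells. Krt15 had 19.0% in Ezh1 rescue cells and 49.8% in Ezh2 rescue cells. Krt16 had 0% in Ezh1 rescue cells and 24.0% in Ezh2 rescue cells, so that among the rescues it was covered with Ezh2 alone.

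**Figure D5:**
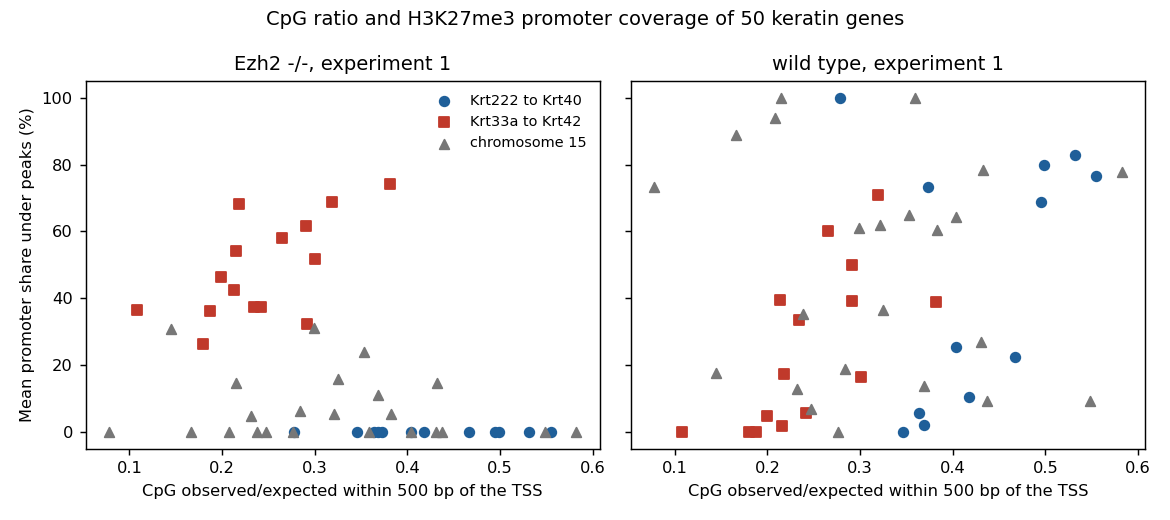
CpG observed over expected within 500 bp of the TSS (horizontal axis) against the mean share of the promoter under peaks (%, vertical axis) in Ezh2 -/- and wild-type cells of experiment 1, with 1 point per keratin gene. The Krt33a to Krt42 genes (squares) lie at ratios up to 0.382 and are covered in Ezh2 -/- cells, whereas the Krt222 to Krt40 genes (circles) lie at 0 there.

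The blocks also differed in base composition. The choice of genes by symbol did not use it, but the blocks were divided after their coverage had been seen. The median CpG ratio (observed over expected within 500 bp of the TSS) was 0.310 over the keratins, against 0.549 over all protein-coding genes. It was 0.235 in the Krt33a to Krt42 block, 0.411 in the Krt222 to Krt40 block and 0.321 in the type II cluster. Keratins with a peak in both Ezh2 -/- libraries had a median of 0.238, against 0.388 for those with none. This largely repeats the comparison of blocks, since 14 of those 18 keratins lie in the Krt33a to Krt42 block. Over all genes those with a peak in both Ezh2 -/- libraries had 0.615, above the median of all genes. Marked keratins had 0.320, against 0.262 for those not marked. The median GC content was 54.1% in the Krt33a to Krt42 block, 48.6% in the Krt222 to Krt40 block and 55.2% in the type II cluster. The plot of CpG ratio against coverage shows the squares of the Krt33a to Krt42 block at low ratios in both panels. Neighbouring genes share sequence and peaks, and the part of composition in the coverage was not tested.

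Other genes of the keratin system were described from lists. Of 15 other intermediate filament genes, 7 were marked in wild type and none of these 7 had an Ezh2 -/- peak, as was so for 92.4% of all genes marked in wild type. The 7 included Nefh (0 and 0% in Ezh2 -/- libraries, against 64.7 and 47.2% in wild-type libraries), Nefl (0 and 0% in Ezh2 -/- libraries, against 41.1 and 59.4% in wild-type libraries), Ina (0 and 0% in Ezh2 -/- libraries, against 26.2 and 63.2% in wild-type libraries), which are neuronal, and Synm (0 and 0% in Ezh2 -/- libraries, against 36.3 and 50.7% in wild-type libraries). Vim, the filament gene of fibroblasts, had 34.0 and 25.5% in Ezh2 -/- libraries, against 0 and 0% in wild-type libraries. Of 17 desmosome and hemidesmosome genes, which anchor keratin filaments, 2 were marked, Pkp1 (0 and 0% in Ezh2 -/- libraries, against 83.3 and 100% in wild-type libraries) and Itgb4 (0 and 0% in Ezh2 -/- libraries, against 67.0 and 61.4% in wild-type libraries). Of 13 cornified envelope genes 1 was marked, Tgm3 (0 and 0% in Ezh2 -/- libraries, against 70.1 and 90.7% in wild-type libraries). Of 46 genes of keratin-associated proteins, which cross-link hair keratins, 6 were marked, 1 of the 22 that lie between Krt40 and Krt33a. Of all genes, 20.1% were marked.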

How the data were processed

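H3K27me3 ChIP-seq was measured in 10 libraries from 6 groups of C2 iMEFs. The 2 input samples were not used here. Groups and replicate numbers came from the labels. The authors aligned reads to mm9, kept uniquely mapped reads, removed duplicates, down-sampled the libraries to equal numbers and called peaks in each library. They scaled the Ezh2 -/- and Ezh1 rescue conditions by coefficients set by how much DNA was immunoprecipitated. Whether the scaling entered the lists is not stated. Tools in the submitters' processing notes are MACS2 2.0.10, HOMER 3.17, SAMtools, Bowtie2 2.1.0 and Bowtie 0.12.8. The deposited files give chromosome, start and end of each peak in bp, with no score, so read depth and mark height are unknown.

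Duplicate peaks were merged and mitochondrial peaks left out. Positions are 1-based. Bases under peaks were summed in each cluster and promoter (2500 bp on either side of the 5′ end of the gene, 5001 bp), and a promoter had a peak when 1 bp or more overlapped. The build was checked against the NCBIM37 (mm9) reference with GENCODE M1, and sequences were read from it. A further promoter sequence that the rule selected is not reported here. Of the keratin symbols listed for use, Krt72 and Krt85 matched no protein-coding gene there. Ezh2 -/- and wild-type values were compared within each experiment by exact permutation over libraries (2 against 2), two-sided, with Benjamini-Hochberg adjustment over 12 comparisons. Counts of promoters have no p-value, since genes are not replicates, and stand beside the share of all protein-coding genes. Genes named are those with a promoter peak in both wild-type libraries of either experiment or in any Ezh2 -/- library, the remaining keratins by group, and up to 4 genes of each other list with the highest wild-type coverage. Members, lists and blocks were chosen with earlier results of these data known. Alternatives were other promoter widths, minimum peak width, joined peaks, flanks, and each library left out. The coverage code was checked on 2000 windows of simulated peaks, with 0 mismatches. Python 3.11.15, NumPy 2.4.6, pandas 2.3.3, SciPy 1.17.1, pysam 0.24.0 and matplotlib 3.10.9 were used.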

Additional observations from a re-analysis of the deposited data

Results flagged for a closer look

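The difference between Ezh2 -/- and wild-type cells over the Krt33a to Krt42 block had opposite directions in the 2 experiments. In experiment 1 it was 26.8 percentage points (25.4 and 65.1% in Ezh2 -/- libraries, against 13.1 and 23.8% in wild-type libraries), and in experiment 2 it was -2.78 percentage points (0 and 0% in Ezh2 -/- libraries, against 3.36 and 2.20% in wild-type libraries). The difference between the experiments was not tested, and antibody, platform and aligner cannot be told apart.

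Within experiment 1 the difference between Ezh2 -/- and wild-type cells was positive over the Krt33a to Krt42 block and negative over the Krt222 to Krt40 block. Coverage of the Krt33a to Krt42 block minus that of the Krt222 to Krt40 block was 25.1 and 64.9 percentage points in Ezh2 -/- libraries, against -29.8 and -33.6 in wild-type libraries. The groups differed by 76.7 percentage points (exact permutation test over libraries, two-sided, p = 0.33, the smallest that 2 against 2 libraries allow). The division into blocks was made after the values had been seen.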

How the results depend on the processing

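Across 142 alternative values of the keratin results, 1 reversed, 8 moved past the limits set for them and 133 stayed within them. Some of the 133 still changed: the 38 marked keratins of experiment 1 ranged between 27 and 45, and the groups overlapped over the Krt33a to Krt42 block under the 3 alternatives named above. No comparison of 2 against 2 libraries can pass a threshold, so these say nothing of significance. With 1 library left out, the type I cluster difference of experiment 1 ranged between -12.7 and 0.560 percentage points, the reversed value being that without replicate 1 of the Ezh2 -/- cells, that of the Krt33a to Krt42 block between 6.93 and 46.6, that of the type II cluster between -39.8 and -28.7, and the mean promoter share between -33.1 and -12.6. The number of marked keratins without an Ezh2 -/- peak in experiment 1, 17, was 24 without replicate 2 of the Ezh2 -/- cells. In experiment 2 the 2 keratins marked in wild type became 11 when 1 library sufficed, 0 with promoters of 1000 bp on either side, 0 with peaks of at least 1000 bp, and between 5 and 8 with a wild-type library left out; those without an Ezh2 -/- peak numbered 4 without wild-type replicate 1, 8 without wild-type replicate 2, and 2 with either Ezh2 -/- library left out. At least 50% of the promoter under peaks left a difference of 0 in that experiment. The Ezh2 rescue count, 30, was 17 with peaks of at least 1000 bp. A replicate block left each difference as it was (26.8 percentage points for the Krt33a to Krt42 block of experiment 1, exact sign-flip test, two-sided, p = 0.50, the smallest that 2 pairs allow). The pairing rests on shared numbers only, and same-numbered libraries deviated together by r = 0.033 in experiment 1 and -0.028 in experiment 2 over 22367 genes, which are not independent replicates. The lists give no depth, so a promoter without a peak was not detected, which does not show that the mark was absent. The cause of these changes was not tested.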
